A study of Mus musculus with 12 samples.

Results

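The 10 genes of the smooth muscle contractile apparatus that were followed across 12 RNA-seq libraries from neonatal mouse fat are Acta2, Actg2, Myh11, Myl9, Cnn1, Tagln, Smtn, Lmod1, Des and Myocd. The members were chosen by gene symbol, and all 10 of 10 were found in the table of 31099 genes and passed the filter on low counts, as did 18855 genes in all. The libraries form 4 groups of 3: perivascular preadipocytes and perivascular progenitors, sorted out of perivascular fat of the thoracic aorta, and ICAM1+ preadipocytes and DPP4+ progenitors, sorted from inguinal white fat. All came from CD-1 pups of both sexes at 3 days of age, and the labels name no genotype or treatment. Each library is a pool of mice, and libraries with the same number in different groups hold tissue of the same pools. The aorta was dissected along with its fat, and the protocol in the labels also describes a sorted smooth muscle fraction, which is not analysed here. The labels do not name the surface markers of the perivascular sorts, so a difference between depots cannot be told apart from a difference between sort gates.

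Smooth muscle cells contract when myosin filaments pull on actin filaments. Calcium and kinase signalling set the phosphorylation of the myosin regulatory light chain, while calponin, transgelin, smoothelin and leiomodin bind or shape the actin filaments. The transcription factor SRF, with its coactivator myocardin or the related MRTF proteins, switches on many of these genes through a short promoter motif, the CArG box. Several of them, Acta2 above all, are also active in pericytes, in myofibroblasts and in some fibroblast-like progenitors, so they do not by themselves mark a smooth muscle cell. Smooth muscle has been proposed as a source of perivascular adipocytes, which is the question the members bear on.

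The promoters of Acta2, Myl9 and Cnn1 are shown because these 3 genes were higher in both perivascular progenitors and ICAM1+ preadipocytes than in DPP4+ progenitors. Each line gives the 250 bases before the RefSeq transcription start (build GRCm38.p6), 5′ to 3′ on the gene's strand: chr19:34255374-34255623 on the minus strand for Acta2, chr2:156775214-156775463 on the plus strand for Myl9, and chr9:22099003-22099252 on the plus strand for Cnn1. Capitals mark matches to the CArG box on either strand, perfect or with 1 change in the AT core.
Acta2: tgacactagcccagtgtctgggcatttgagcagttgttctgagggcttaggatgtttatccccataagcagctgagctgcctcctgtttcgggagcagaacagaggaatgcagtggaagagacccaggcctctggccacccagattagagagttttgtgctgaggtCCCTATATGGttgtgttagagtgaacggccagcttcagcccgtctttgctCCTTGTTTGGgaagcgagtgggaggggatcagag
Myl9: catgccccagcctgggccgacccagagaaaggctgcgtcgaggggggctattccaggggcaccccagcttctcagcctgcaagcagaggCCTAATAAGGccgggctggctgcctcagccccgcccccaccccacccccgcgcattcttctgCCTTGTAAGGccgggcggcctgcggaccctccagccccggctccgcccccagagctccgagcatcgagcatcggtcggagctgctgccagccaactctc
Cnn1: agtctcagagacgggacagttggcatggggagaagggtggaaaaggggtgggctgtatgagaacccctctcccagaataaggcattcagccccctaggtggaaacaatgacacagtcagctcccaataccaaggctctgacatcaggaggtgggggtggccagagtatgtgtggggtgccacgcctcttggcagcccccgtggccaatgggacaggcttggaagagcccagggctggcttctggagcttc
The Acta2 promoter held 2 matches with 1 core change, CCCTATATGG beginning 84 bases and CCTTGTTTGG beginning 34 bases before the start. The Myl9 promoter held 1 perfect match, CCTAATAAGG, 161 bases before the start and CCTTGTAAGG, with 1 core change, 99 bases before it. No match lay in the Cnn1 window, nor in those of Des, Lmod1 and Smtn, the other members with a RefSeq promoter entry. Among 32851 promoters, 1.47% held a perfect match and 8.59% held a match of either kind in a window of this length. The 3 windows printed reach into the GENCODE bounds of Acta2, Myl9 and Cnn1 given below. The distances therefore hold for the RefSeq starts alone. A match is a run of letters and not a measured binding site.

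Library totals ran from 15614628 to 25674461 counts. Levels are CPM, counts scaled to the library total after TMM correction, and a gene was called where the adjusted p of edgeR's quasi-likelihood test was under 0.05. The sort markers matched the inguinal labels, with Dpp4 at 1593, 1476 and 1460 CPM in DPP4+ progenitors and at no more than 97.2 CPM elsewhere, and Icam1 at 498, 485 and 507 CPM in ICAM1+ preadipocytes and at no more than 102 CPM elsewhere. A set of 3 libraries stood apart from their groups, as seen in their marker sums. DPP4+ library 2 had summed mast cell markers of 324 CPM, against 73.5 and 68.4 CPM in the other DPP4+ libraries. Perivascular preadipocyte library 1 had summed stromal markers of 100731 CPM, against 46692 and 34767 CPM in its group. Its summed adipocyte markers were 2948 CPM, against 6574 and 7261 CPM. Perivascular progenitor library 1 had summed immediate early genes of 4266 CPM, against 2666 and 2666 CPM in its group. In bulk RNA, fewer cells that express a gene and less RNA per cell cannot be told apart.

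Per kilobase of exon, Myl9 was the most abundant member in each group, with a mean of 235 CPM per kb in perivascular preadipocytes, 203 in perivascular progenitors, 199 in ICAM1+ preadipocytes and 60.5 in DPP4+ progenitors. Acta2 came next at 146, 82.2, 107 and 26.5 CPM per kb in the same order of groups. Smtn, Actg2, Cnn1 and Myh11 lay between 1.85 and 28.8 CPM per kb as group means. Des lay between 1.33 and 6.22 CPM per kb, and Lmod1, Tagln and Myocd were at or under 1.08 CPM per kb. The members were thus spread over a wide range of levels, with the light chain and alpha-actin far above the heavy chain. The transgelin gene was among the lowest by count, but its level is uncertain, as given with that gene below.

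**Figure D1:**
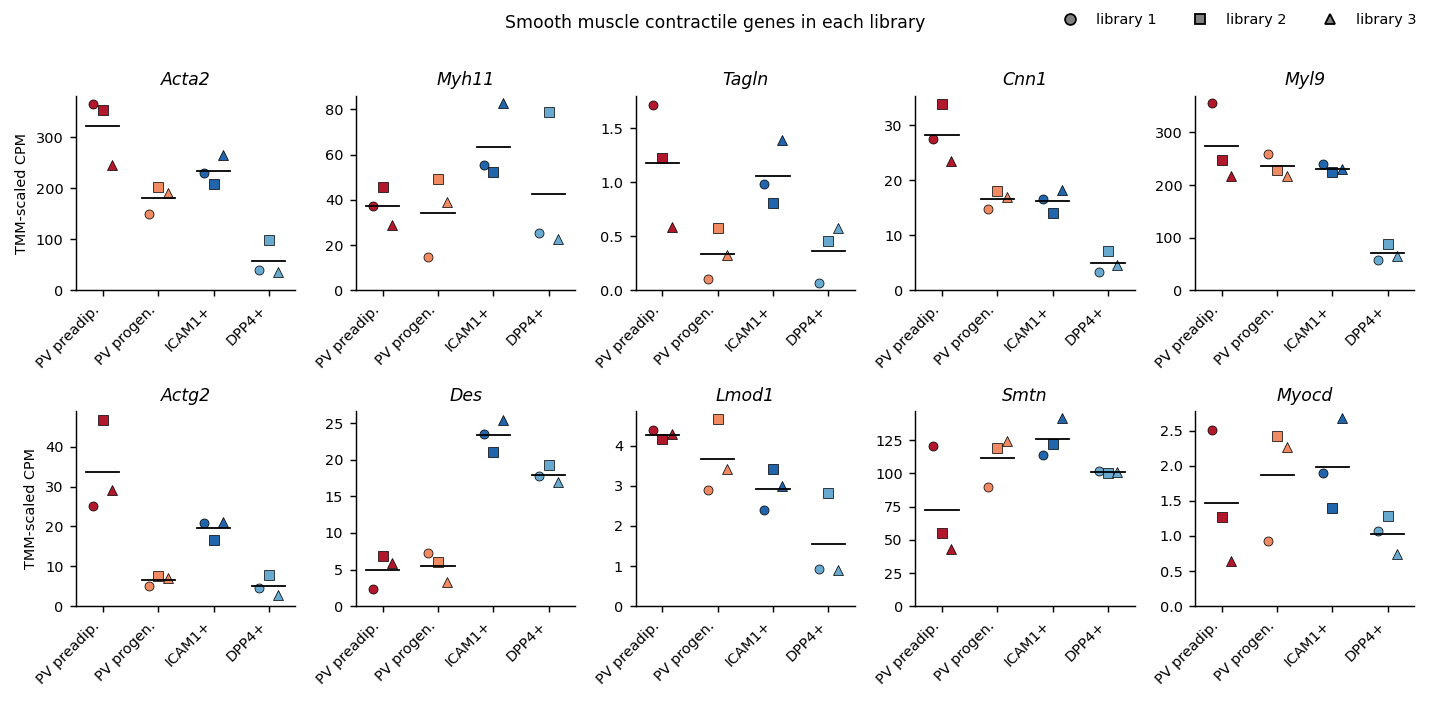
TMM-scaled CPM of each member in each library (points, shaped by library number) with the group mean (line); each panel has its own linear axis from 0. Acta2, Cnn1 and Myl9 were lowest in the DPP4+ libraries, Actg2 was highest in perivascular preadipocytes, and Des was under 7.3 CPM in all 6 perivascular libraries and over 16 CPM in all 6 inguinal ones.

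Acta2 encodes smooth muscle alpha-actin, the main thin-filament actin of vascular smooth muscle (chromosome 19, 34241090 to 34255590, minus strand, GRCm38). It had 365, 353 and 246 CPM in perivascular preadipocytes and 149, 202 and 191 CPM in perivascular progenitors. It had 229, 208 and 265 CPM in ICAM1+ preadipocytes and 40.4, 98.8 and 35.3 CPM in DPP4+ progenitors. The DPP4+ libraries lay below the other 9, and the perivascular preadipocytes overlapped their nearest group, the ICAM1+ preadipocytes. Perivascular progenitors exceeded DPP4+ progenitors 3.10-fold (log2 1.63, SE 0.33, adjusted p = 0.00292). ICAM1+ preadipocytes exceeded DPP4+ progenitors 4.02-fold (log2 2.01, SE 0.33, adjusted p = 0.00100). Without DPP4+ library 2, which had the highest Acta2 of its group, these log2 differences were 2.26 and 2.63. Perivascular preadipocytes did not overlap perivascular progenitors, but the difference missed the threshold (log2 0.83, SE 0.32, adjusted p = 0.0653), as did the one from ICAM1+ preadipocytes (log2 0.46, adjusted p = 0.263). The first of these passed in DESeq2 (log2 0.81, adjusted p = 0.0496), when scaled by library totals (adjusted p = 0.0381), with the 2 groups fitted alone (log2 0.85, adjusted p = 0.0485), and without DPP4+ library 2 (adjusted p = 0.00861) or 3 (adjusted p = 0.0452).

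Actg2, the gamma-actin of visceral smooth muscle (chromosome 6, 83512905 to 83536265, minus strand), followed the stage of the cells. It had 25.0, 46.6 and 29.2 CPM in perivascular preadipocytes, against 5.01, 7.66 and 6.98 CPM in perivascular progenitors. It had 20.9, 16.7 and 21.1 CPM in ICAM1+ preadipocytes, against 4.64, 7.90 and 2.71 CPM in DPP4+ progenitors. All 6 preadipocyte libraries lay above all 6 progenitor libraries. The preadipocyte to progenitor ratio was 5.13 in perivascular fat (log2 2.36, SE 0.34, adjusted p = 0.000573) and 3.84 in inguinal fat (log2 1.94, SE 0.35, adjusted p = 0.00165), and the difference between these steps was 0.42 on the log2 scale (SE 0.47, adjusted p = 0.576). Between depots, Actg2 did not pass the test among progenitors (log2 0.36, adjusted p = 0.491) or among preadipocytes (log2 0.78, adjusted p = 0.0661). The second of these passed without perivascular preadipocyte library 1 (adjusted p = 0.0494), DPP4+ library 2 (adjusted p = 0.0364) or DPP4+ library 3 (adjusted p = 0.0358). It also passed when scaled by library totals (log2 1.02, adjusted p = 0.0289), with the 2 groups fitted alone (log2 0.70, adjusted p = 0.0353) and without the 3 libraries that stand apart (log2 0.91, adjusted p = 0.00172), and without perivascular preadipocyte library 2 its log2 value was 0.48.

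Myl9, the regulatory light chain of smooth muscle myosin (chromosome 2, 156775420 to 156781658, plus strand), had 355, 248 and 217 CPM in perivascular preadipocytes and 259, 229 and 218 CPM in perivascular progenitors. It had 239, 226 and 230 CPM in ICAM1+ preadipocytes and 57.6, 87.5 and 65.6 CPM in DPP4+ progenitors. The other 9 libraries lay at 217 CPM or more and the DPP4+ libraries at 87.5 CPM or less. Perivascular progenitors were 3.35-fold above DPP4+ progenitors (log2 1.74, SE 0.20, adjusted p = 4.91e-05), and ICAM1+ preadipocytes were 3.29-fold above them (log2 1.72, SE 0.20, adjusted p = 7.28e-05). Perivascular preadipocytes did not pass against perivascular progenitors (log2 0.22, SE 0.20, adjusted p = 0.427) or against ICAM1+ preadipocytes (log2 0.24, SE 0.20, adjusted p = 0.337). Of the members, Myl9 was the one whose step passed the test of a difference between depots. The perivascular step was smaller than the inguinal step for this gene (log2 difference of the steps -1.50, SE 0.28, adjusted p = 0.00418).

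Myh11, the heavy chain of smooth muscle myosin and one of the more specific markers of mature smooth muscle (chromosome 16, 14194535 to 14291372, minus strand), had another pattern. It had 37.2, 45.5 and 28.8 CPM in perivascular preadipocytes and 14.6, 49.3 and 39.0 CPM in perivascular progenitors. It had 55.1, 52.3 and 82.6 CPM in ICAM1+ preadipocytes and 25.4, 79.0 and 22.7 CPM in DPP4+ progenitors. None of its 5 tests passed in the fit of all libraries, and the largest pairwise difference was between perivascular and ICAM1+ preadipocytes (log2 -0.77, SE 0.48, adjusted p = 0.208), whose libraries did not overlap. This difference passed with the 2 groups fitted alone (log2 -0.85, adjusted p = 0.0165) and without the 3 libraries that stand apart (log2 -0.82, adjusted p = 0.00474). DPP4+ library 2 had more Myh11 than the other DPP4+ libraries summed. Without it, the ICAM1+ preadipocytes passed against DPP4+ progenitors at a log2 difference of 1.40 (adjusted p = 0.0484), against 0.58 (adjusted p = 0.473) with it.

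Cnn1, calponin 1, which binds actin and restrains myosin (chromosome 9, 22099216 to 22109630, plus strand), was called in 4 of 5 tests, more than any other member. It had 27.5, 33.8 and 23.5 CPM in perivascular preadipocytes and 14.8, 18.0 and 17.0 CPM in perivascular progenitors. It had 16.5, 14.0 and 18.3 CPM in ICAM1+ preadipocytes and 3.43, 7.14 and 4.59 CPM in DPP4+ progenitors. The perivascular preadipocytes lay above all other libraries and the DPP4+ progenitors below all others, while the groups between them overlapped. It was 3.28-fold higher in perivascular than in DPP4+ progenitors (log2 1.71, SE 0.25, adjusted p = 0.000294) and 3.22-fold higher in ICAM1+ preadipocytes than in DPP4+ progenitors (log2 1.69, SE 0.25, adjusted p = 0.000429). It was 1.74-fold higher in perivascular than in ICAM1+ preadipocytes (log2 0.80, SE 0.24, adjusted p = 0.0157) and 1.71-fold higher than in perivascular progenitors (log2 0.77, SE 0.24, adjusted p = 0.0254). The call against ICAM1+ preadipocytes was lost without perivascular preadipocyte library 2 (adjusted p = 0.0718) or ICAM1+ library 2 (adjusted p = 0.0705). The call against perivascular progenitors was lost without perivascular preadipocyte library 2 (adjusted p = 0.118) or any 1 of the 3 perivascular progenitor libraries (adjusted p up to 0.0636).

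Tagln, transgelin or SM22, a small actin-bundling protein that is usually abundant in smooth muscle (chromosome 9, 45929619 to 45936058, minus strand), had 1 to 35 counts per library and 167 in all. Its counts were 35, 25 and 11 in perivascular preadipocytes and 2, 10 and 6 in perivascular progenitors. They were 16, 21 and 27 in ICAM1+ preadipocytes and 1, 6 and 7 in DPP4+ progenitors. Of its exon bases, 67.86% overlap genes on the other strand, mainly the antisense gene Gm48529, and it is not given how reads there were counted, so the level is uncertain. The one call was against perivascular progenitors in perivascular preadipocytes (log2 1.82, SE 0.64, adjusted p = 0.0445). It was lost with the replicate number as a block (log2 1.90, adjusted p = 0.0635), without the filter on low counts (adjusted p = 0.0598), with the 2 groups fitted alone (adjusted p = 0.0776) and without the 3 libraries that stand apart (log2 0.95, adjusted p = 0.279). It was also lost on leaving out, 1 at a time, perivascular preadipocyte library 1 or 2, perivascular progenitor library 1 or 3, any ICAM1+ library or DPP4+ library 2, with adjusted p values up to 0.135.

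Lmod1, leiomodin 1, which starts new actin filaments in smooth muscle (chromosome 1, 135324807 to 135368065, plus strand), had 4.38, 4.16 and 4.29 CPM in perivascular preadipocytes and 2.89, 4.66 and 3.41 CPM in perivascular progenitors. It had 2.39, 3.41 and 2.98 CPM in ICAM1+ preadipocytes and 0.929, 2.81 and 0.902 CPM in DPP4+ progenitors. Perivascular progenitors lay above DPP4+ progenitors (log2 1.23, SE 0.39, adjusted p = 0.0357), a call that was lost when the 2 groups were fitted alone (adjusted p = 0.102). It was also lost without perivascular progenitor library 2 or 3, ICAM1+ library 3, or DPP4+ library 1 or 3, with adjusted p values up to 0.134. ICAM1+ preadipocytes overlapped DPP4+ progenitors (log2 0.92, adjusted p = 0.134), and passed without DPP4+ library 2 (log2 1.68, adjusted p = 0.00442) and when scaled by library totals (log2 1.28, adjusted p = 0.0329).

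Smtn, smoothelin, a cytoskeletal protein of contractile smooth muscle (chromosome 11, 3517523 to 3540612, minus strand), was at 120, 55.2 and 42.9 CPM in perivascular preadipocytes and at 89.6, 120 and 125 CPM in perivascular progenitors. It was at 114, 123 and 142 CPM in ICAM1+ preadipocytes and at 102, 100.1 and 101 CPM in DPP4+ progenitors. Perivascular preadipocyte libraries 2 and 3 were the lowest of the 12, and library 1 of that group lay among the rest. Perivascular preadipocytes were lower than ICAM1+ preadipocytes (log2 -0.79, SE 0.30, adjusted p = 0.0466). This call was lost with the replicate number as a block (log2 -0.84, adjusted p = 0.0581) and without any 1 library other than perivascular preadipocyte library 1 or perivascular progenitor library 1 (adjusted p up to 0.173). It was lost too with library totals as the scale (log2 -0.58, adjusted p = 0.111) and with the 2 groups fitted alone (log2 -0.86, adjusted p = 0.0802). Without perivascular preadipocyte library 1 the difference was log2 -1.42 (adjusted p = 6.03e-05), and Smtn was also lower than in perivascular progenitors (log2 -1.22, adjusted p = 0.000227), against log2 -0.61 (adjusted p = 0.133) with it. The inguinal step of Smtn (log2 0.32, adjusted p = 0.536) passed with the 2 groups fitted alone (log2 0.30, adjusted p = 0.0295). In the annotation, 16.3% of its exon bases overlap a transcript on the other strand.

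Des encodes desmin, the intermediate filament of muscle that links contractile filaments to the membrane (chromosome 1, 75360329 to 75368579, plus strand). It was lower in perivascular cells at both stages. It had 2.36, 6.80 and 5.85 CPM in perivascular preadipocytes, against 23.5, 21.1 and 25.4 CPM in ICAM1+ preadipocytes. It had 7.23, 5.99 and 3.25 CPM in perivascular progenitors, against 17.7, 19.3 and 16.9 CPM in DPP4+ progenitors. No perivascular library reached the lowest inguinal one. The perivascular level was lower by a log2 of -2.22 among preadipocytes (SE 0.35, adjusted p = 0.000350) and of -1.71 among progenitors (SE 0.35, adjusted p = 0.00298), and both calls held under all alternatives run. The steps within the depots did not pass (log2 -0.14 in perivascular fat, adjusted p = 0.796, and 0.38 in inguinal fat, adjusted p = 0.505). The inguinal step passed with the 2 groups fitted alone (log2 0.36, adjusted p = 0.0441).

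Myocd, the coactivator myocardin itself (chromosome 11, 65176561 to 65269989, minus strand), was scarce in all 12 libraries. It had 2.51, 1.27 and 0.644 CPM in perivascular preadipocytes and 0.929, 2.42 and 2.27 CPM in perivascular progenitors. It had 1.90, 1.39 and 2.67 CPM in ICAM1+ preadipocytes and 1.07, 1.29 and 0.738 CPM in DPP4+ progenitors, from 351 counts in all. None of its 5 tests passed in the fit of all libraries. The log2 differences were 0.84 for perivascular against DPP4+ progenitors (SE 0.52, adjusted p = 0.267) and 0.93 for ICAM1+ preadipocytes against DPP4+ progenitors (SE 0.52, adjusted p = 0.259). Without the 3 libraries that stand apart it passed between progenitors (log2 1.35, adjusted p = 0.0458), between preadipocytes (log2 -1.08, adjusted p = 0.0405) and in the perivascular step (log2 -1.34, adjusted p = 0.0222).

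**Figure D2:**
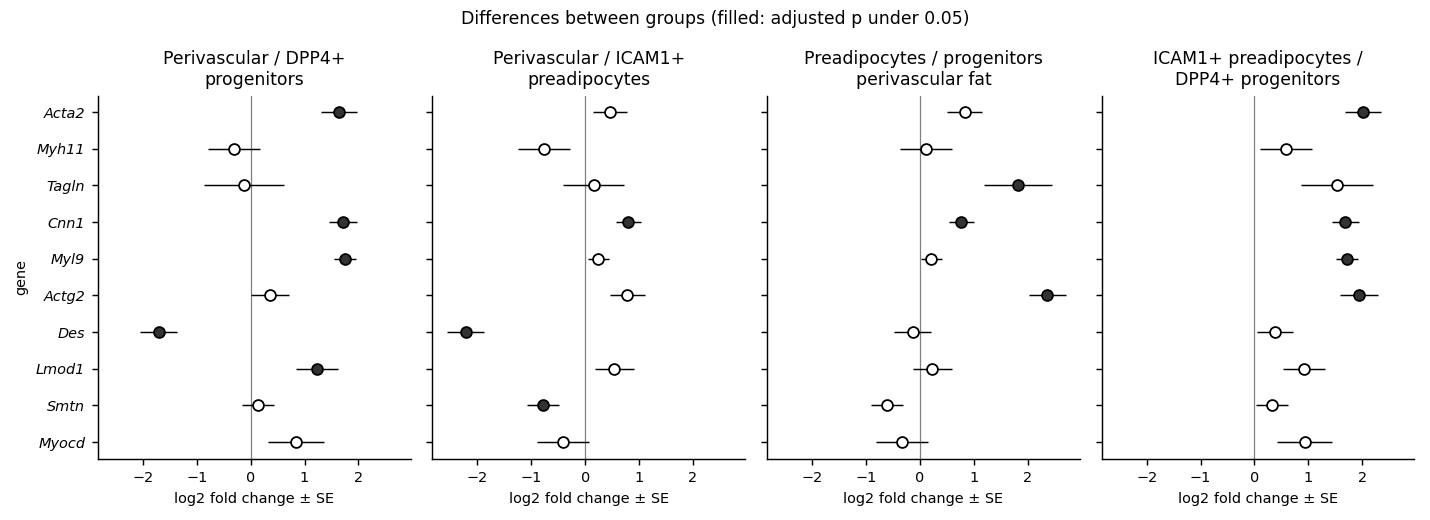
Log2 fold change with its standard error for each member in the 4 pairwise comparisons; filled points passed the edgeR test at an adjusted p under 0.05. Acta2, Cnn1 and Myl9 passed in both comparisons against DPP4+ progenitors, and Des was lower in both perivascular groups than in their inguinal counterparts.

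Perivascular progenitors were first set against DPP4+ progenitors, the comparison of depots at the earlier stage. Acta2, Cnn1, Myl9 and Lmod1 were higher and Des was lower, so that 4 members passed upward and 1 downward, against 13.0% of the 18855 genes tested upward and 11.8% downward (24.9% in either direction). The median log2 difference of the 10 members was 0.60, beside 0.05 for all genes tested. Among 24 tested partners of the contractile apparatus, 10 were higher and none was lower. They included Itga8, the alpha-8 integrin of smooth muscle (31.0, 75.6 and 95.4 CPM in perivascular progenitors, against 2.43, 5.998 and 2.87 CPM in DPP4+ progenitors; log2 4.16, adjusted p = 0.000141), the filament protein nexilin gene Nexn (log2 2.30, adjusted p = 0.000201), the alpha-actinin gene Actn1 (log2 2.30, adjusted p = 3.90e-05) and Pdlim3 (log2 2.24, adjusted p = 0.000175). The tropomyosin genes Tpm1 (log2 0.56, adjusted p = 0.0100) and Tpm2 (log2 0.84, adjusted p = 0.0120) were higher too. Mylk, the kinase that phosphorylates the light chain, had a log2 difference of -0.49 (adjusted p = 0.413).

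Perivascular preadipocytes were then set against ICAM1+ preadipocytes, the comparison of depots at the later stage. Cnn1 was higher, and Des and Smtn were lower, which makes 1 member upward and 2 downward, against 23.5% and 21.4% of all genes tested (44.9% in either direction). The members' median was 0.20, beside 0.04 for all genes. Of the 24 partners, 5 were higher and 7 lower. Itga8 (log2 2.25, adjusted p = 0.00325), Nexn (log2 1.40, adjusted p = 0.00252) and Kcnmb1, the beta subunit of the calcium-activated potassium channel (log2 1.25, adjusted p = 0.0285), were higher. The largest rise was that of Casq2 (log2 3.53, adjusted p = 0.00159), from a mean of 0.257 CPM in ICAM1+ preadipocytes to 2.95 CPM in perivascular preadipocytes. Mylk (log2 -1.48, adjusted p = 0.00987), the filamin gene Flna (log2 -1.21, adjusted p = 0.00237) and Csrp1 (log2 -1.14, adjusted p = 0.000597) were lower. Mylk had 11.7, 15.8 and 18.4 CPM in perivascular preadipocytes, against 36.8, 36.4 and 55.1 CPM in ICAM1+ preadipocytes, which did not overlap.

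Within perivascular fat, preadipocytes were set against progenitors. Actg2, Cnn1 and Tagln were higher and no member was lower, so 3 members passed upward, against 16.8% of all genes upward and 16.1% downward (32.9% in either direction). The median of the members was 0.22, beside -0.05 for all genes. Among 3 partners that were higher were Tpm2 (log2 1.01, adjusted p = 0.00398) and the calsequestrin gene Casq2 (log2 2.61, adjusted p = 0.00949). Another 4 were lower, with Ppp1r12b, a targeting subunit of myosin phosphatase, the furthest (log2 -1.60, adjusted p = 0.000972). Casq2 was scarce, at means of 2.95 CPM in perivascular preadipocytes and 0.481 CPM in perivascular progenitors. Cardiac muscle markers were higher in the same preadipocytes, as given below, and their part in the Casq2 difference was not tested.

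Within inguinal fat, ICAM1+ preadipocytes were set against DPP4+ progenitors. Acta2, Actg2, Cnn1 and Myl9 were higher and no member was lower, against 9.34% of all genes upward and 8.61% downward (17.9% in either direction). The median of the members was 1.23, beside 0.02 for all genes. Among the 24 partners 9 were higher and 1 was lower. Pdlim3 had 36.6, 31.4 and 31.6 CPM in ICAM1+ preadipocytes, against 3.00, 4.86 and 2.46 CPM in DPP4+ progenitors (log2 3.27, adjusted p = 1.52e-05). Actn1 averaged 10.7 CPM in ICAM1+ preadipocytes, against 1.71 CPM in DPP4+ progenitors (log2 2.64, adjusted p = 1.83e-05). Tpm2 was higher by a log2 of 1.54 (adjusted p = 0.000274). This comparison and that of the progenitors share the DPP4+ libraries. Each group likewise serves in a pair of comparisons, so the values of the 4 comparisons are not independent.

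The interaction of depot and stage tested whether the step to preadipocytes differed between depots, as the perivascular step minus the inguinal step. Of the members, 1 passed downward (Myl9, above) and none upward, against 8.66% of all genes downward and 6.37% upward (15.0% in either direction). The median of the members was -0.80, beside 0.00 for all genes. Acta2 (log2 -1.18, adjusted p = 0.1001) and Cnn1 (log2 -0.92, adjusted p = 0.0890) missed the threshold with all libraries. Without DPP4+ library 2 both passed (log2 -1.80, adjusted p = 0.00304, and log2 -1.25, adjusted p = 0.0220), as did Lmod1 (log2 -1.45, adjusted p = 0.0386). Of the 24 partners, 6 were lower and none was higher, led by Pdlim3 (log2 -2.71, adjusted p = 0.00121) and Actn1 (log2 -2.26, adjusted p = 0.00124). With the 3 libraries that stand apart left out, a choice made after seeing the data, 8 of 10 members were called between progenitors (30.1% of the 19396 genes tested in that fit) and 6 between preadipocytes (56.3%). In that fit 5 were called in the perivascular step (51.0%), 6 in the inguinal step (25.7%) and 7, all downward, in the interaction (40.1%). The counts between preadipocytes and in the perivascular step were thus near the share of all genes.

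The share of each member within its gene family was then taken per kilobase. Acta2 made up 12.8 ± 2.85% of the 6 actins in perivascular preadipocytes and 8.38 ± 2.64% in perivascular progenitors (SD, n = 3 for all shares). It made up 9.95 ± 1.07% in ICAM1+ preadipocytes and 1.94 ± 1.12% in DPP4+ progenitors. Actg2 held 1.89 ± 0.675% of the actins in perivascular preadipocytes, against 0.431 ± 0.155% in perivascular progenitors, and 1.17 ± 0.132% in ICAM1+ preadipocytes, against 0.238 ± 0.116% in DPP4+ progenitors. The cytoplasmic beta-actin Actb held between 72.0% and 75.9% as group means, and the cytoplasmic gamma-actin Actg1 was at 15.0% in perivascular progenitors and 14.8% in ICAM1+ preadipocytes, against 22.9% in DPP4+ progenitors. The actin pool was thus largely cytoplasmic in every group, and Acta2 held its smallest part in DPP4+ progenitors, where Actg1 was highest (log2 -1.02 in perivascular progenitors against them, adjusted p = 0.000224, and -0.96 in ICAM1+ preadipocytes, adjusted p = 0.000446).

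Myl9 made up 55.7 ± 5.28%, 52.0 ± 1.37% and 47.4 ± 1.45% of the light chains Myl9, Myl12a and Myl12b in perivascular preadipocytes, perivascular progenitors and ICAM1+ preadipocytes, and 23.7 ± 5.64% in DPP4+ progenitors. Cnn1 was a minor calponin, at 6.64 ± 2.54% of the 3 genes in perivascular preadipocytes, 3.12 ± 0.867% in perivascular progenitors, 2.97 ± 0.550% in ICAM1+ preadipocytes and 1.001 ± 0.386% in DPP4+ progenitors, and Cnn3 held at least 69.8% as a group mean. Myh11 held 32.6 ± 8.15% of Myh9, Myh10 and Myh11 in perivascular preadipocytes and 32.1 ± 3.68% in ICAM1+ preadipocytes, against 15.4 ± 2.30% in perivascular progenitors and 19.0 ± 11.1% in DPP4+ progenitors. In perivascular fat this went with lower non-muscle heavy chains, Myh10 (log2 -1.22, adjusted p = 0.0149) and Myh9 (log2 -0.95, adjusted p = 0.0210), while Myh11 itself was at 37.2 and 34.3 CPM as means of the preadipocytes and progenitors. Des was at 1.46 ± 0.782% of Des and Vim in perivascular preadipocytes and 2.38 ± 0.186% in ICAM1+ preadipocytes, and Vim was lower in the perivascular cells too (log2 -1.45, adjusted p = 1.12e-05). Of the 15 tested non-muscle counterparts, none was higher and 5 were lower in perivascular than in DPP4+ progenitors, and 1 was higher and 5 lower in perivascular than in ICAM1+ preadipocytes. Among these Tagln2, the widely expressed relative of Tagln, was lower in both (log2 -1.34 and -1.72). Among all genes tested, 13.0% were higher and 11.8% lower between progenitors, and 23.5% and 21.4% between preadipocytes.

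**Figure D3:**
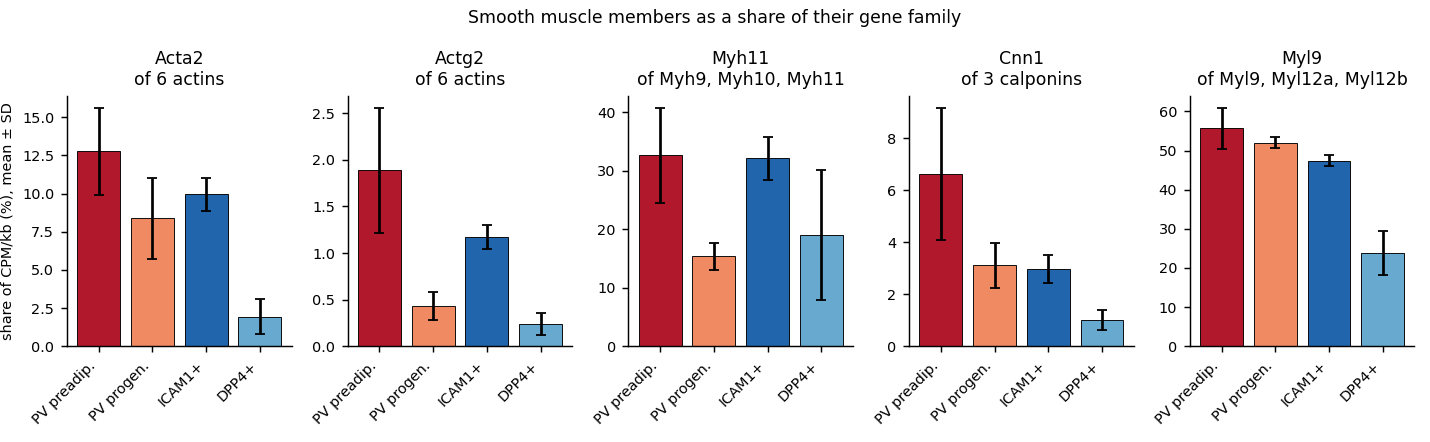
Share of CPM per kilobase of exon held by 5 members within their gene families, as mean ± SD of 3 libraries per group. Acta2 and Myl9 had their smallest shares in DPP4+ progenitors (1.94% and 23.7%), and the share of Myh11 was 32.6% and 32.1% in perivascular and ICAM1+ preadipocytes.

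The upstream regulators of SRF and myocardin were looked at as a list of 20 genes, all tested. Between progenitors 7 were higher in perivascular cells and 4 lower, against 13.0% and 11.8% of all genes tested. Between preadipocytes 4 were higher in perivascular cells and 6 lower, against 23.5% and 21.4% of all genes tested. The count between preadipocytes was thus near the share of all genes (44.9% in either direction). Srf itself passed in none of the 5 tests, with log2 differences of 0.57 to 0.77 in the 4 pairwise comparisons. The coactivator genes of the MRTF family were lower in perivascular cells: Mrtfb among progenitors (log2 -1.38, adjusted p = 0.000437) and preadipocytes (log2 -1.35, adjusted p = 0.000371), and Mrtfa among preadipocytes (log2 -1.86, adjusted p = 8.04e-05). Mrtfa had 11.7, 6.60 and 9.49 CPM in perivascular preadipocytes, against 31.5, 33.0 and 36.3 CPM in ICAM1+ preadipocytes. In RNA level, Mrtfa and Mrtfb were thus not ordered like Acta2, Cnn1 or Myl9 over the groups. The mean of Myocd was lowest in DPP4+ progenitors (1.03 CPM, against 1.47 to 1.99 CPM elsewhere), without a call in the fit of all libraries. The activity of the coactivators was not measured, and their part was not tested.

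Klf4, a repressor of smooth muscle genes, was lower in all 4 pairwise comparisons, by log2 values between -0.72 and -1.32. It was highest in DPP4+ progenitors at 191, 163 and 202 CPM. The LIM-domain coregulator Fhl2 had 28.5, 22.3 and 29.2 CPM in perivascular progenitors and 33.3, 31.5 and 29.3 CPM in ICAM1+ preadipocytes, against 4.07, 5.39 and 4.59 CPM in DPP4+ progenitors (log2 2.51, adjusted p = 0.000362, and log2 2.74, adjusted p = 0.000259). Heyl, a Notch target and transcription factor of vascular smooth muscle, was higher in the same comparisons (log2 3.53, adjusted p = 0.000398, and log2 4.15, adjusted p = 0.000186). Gata6, a factor of vascular smooth muscle and mesoderm, was higher in perivascular than in DPP4+ progenitors (log2 2.49, adjusted p = 0.00341), with 97.4 CPM in perivascular progenitor library 1 and 19.0 and 19.3 CPM in the other libraries of that group. The other regulators called higher between progenitors were Tcf21 (log2 6.21, the largest change of the list), Hey2 (log2 3.16), Klf5 (log2 1.39) and Hey1 (log2 1.31). Besides Mrtfb and Klf4, Mef2c (log2 -1.65, adjusted p = 0.000186) and Prrx1 (log2 -0.66, adjusted p = 0.0166) were lower there. Mef2c was also lower in ICAM1+ preadipocytes than in DPP4+ progenitors (log2 -1.26, adjusted p = 0.00165).

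**Figure D4:**
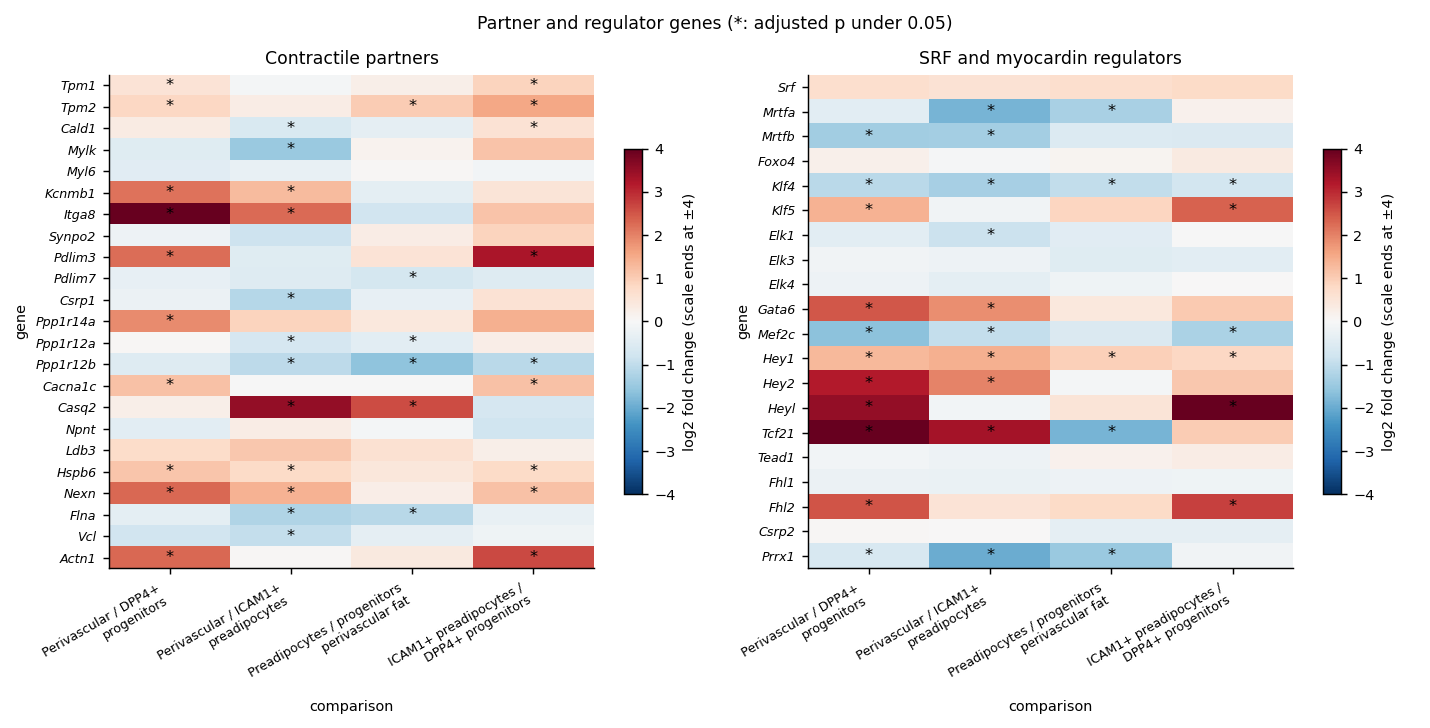
Log2 fold changes of most of the 24 tested contractile partners (left) and the 20 SRF and myocardin regulators (right) in the 4 pairwise comparisons; colour gives the value, capped at 4 in either direction, and a star an adjusted p under 0.05. Pdlim3, Actn1, Fhl2 and Heyl were higher in both comparisons against DPP4+ progenitors, and Mrtfb was lower in both perivascular groups.

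The signals that act on the apparatus did not all follow the members. Of 13 genes of RhoA signalling and myosin phosphorylation, 1 was higher and 4 were lower in perivascular than in DPP4+ progenitors, and the same numbers held for ICAM1+ preadipocytes against DPP4+ progenitors. Among all genes tested, 13.0% were higher and 11.8% lower in the first comparison, and 9.34% and 8.61% in the second. Rhoa, a small GTPase upstream of myosin phosphorylation, was at 293, 266 and 258 CPM in perivascular progenitors, against 624, 549 and 619 CPM in DPP4+ progenitors (log2 -1.13, adjusted p = 4.80e-05). Of 8 immediate early SRF targets, 7 were lower in perivascular than in ICAM1+ preadipocytes and none was higher, with Egr3 (log2 -3.51, adjusted p = 5.31e-06) and Egr2 (log2 -2.69, adjusted p = 1.70e-05) the furthest. Such genes also respond to tissue digestion, and its part was not tested. Of 10 TGF-beta and YAP response genes, 2 were higher and 6 lower in the same comparison, with the thrombospondin gene Thbs1 the furthest down (log2 -3.77, adjusted p = 1.53e-05). In this comparison of preadipocytes, 23.5% of all genes tested were higher and 21.4% lower.

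Markers of other cell types were measured beside the members. The summed members ran from 599 to 941 CPM in perivascular preadipocytes, 543 to 640 in perivascular progenitors, 666 to 791 in ICAM1+ preadipocytes and 251 to 404 in DPP4+ progenitors. Summed pericyte markers (12 genes, all detected) were highest in DPP4+ progenitors, at 243 to 590, 440 to 705, 634 to 758 and 902 to 975 CPM in the same order of groups. Between ICAM1+ preadipocytes and DPP4+ progenitors, 5 pericyte genes were nevertheless higher and 2 lower, with Notch3 higher (log2 2.68, adjusted p = 3.20e-05) and Kcnj8 lower (log2 -3.17, adjusted p = 2.86e-05). In that comparison 9.34% of all genes tested were higher and 8.61% lower. The part of pericytes in the member differences was not tested.

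Summed Schwann cell markers were 231 to 253 CPM in ICAM1+ preadipocytes and 88.4 to 178 CPM in DPP4+ progenitors, but 32.9 to 72.4 CPM in the 6 perivascular libraries. Des was high in the same groups, and the part of Schwann cells was not tested. Summed cardiac muscle markers were 28.7, 99.4 and 171.0 CPM in perivascular preadipocytes, against 25.3 to 28.4 CPM in perivascular progenitors. Of 11 tested genes, 8 were higher in the preadipocytes, led by Myl7 (log2 3.17, adjusted p = 0.00562) and Actc1 (log2 3.15, adjusted p = 0.00571). The share of all genes tested that were higher in this step was 16.8%. Cardiac muscle also uses Des, which was at 2.36, 6.80 and 5.85 CPM in the same 3 preadipocyte libraries, and the part of cardiac muscle was not tested. The library with the lowest cardiac sum had the highest Acta2, Tagln, Myl9, Lmod1, Smtn and Myocd of its group. In DPP4+ library 2, summed mast cell (324 CPM), haematopoietic (231 CPM) and Schwann (178 CPM) markers and 8 members, all but Tagln and Smtn, were each the highest of their group. That library's part in the DPP4+ values was measured by leaving it out, as given above.

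**Figure D5:**
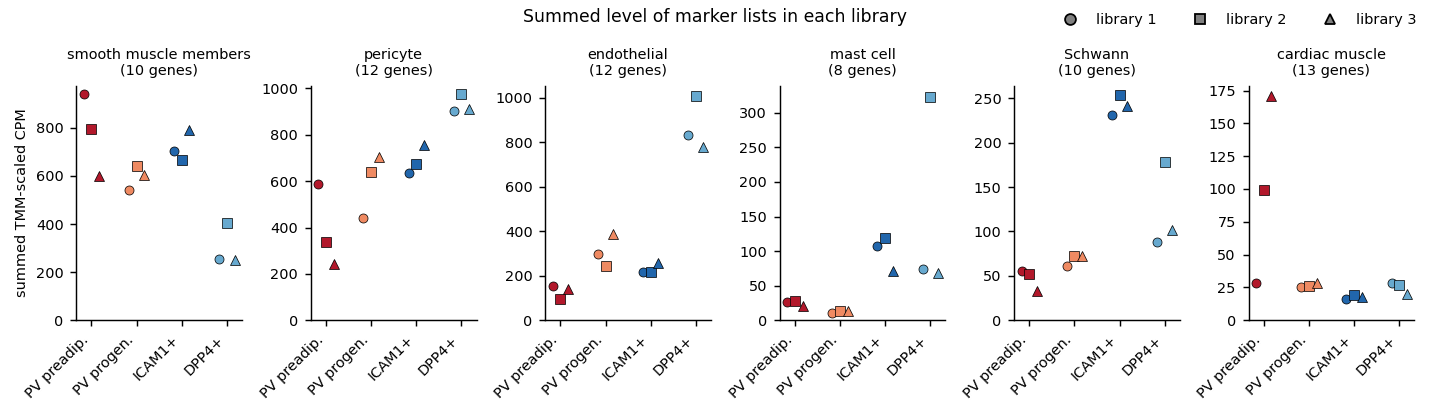
Summed TMM-scaled CPM of the members and of 5 marker lists in each library; points are libraries, shaped by number. DPP4+ progenitors had the lowest member sums (251 to 404 CPM) and the highest pericyte and endothelial sums, and the cardiac sum reached 171.0 CPM in perivascular preadipocyte library 3. Tek held most of the endothelial sum in DPP4+ progenitors, and single pericyte genes went both ways.

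The members did not vary in step over the libraries. Acta2, Cnn1, Myl9 and Lmod1 ran together, with Pearson r of log2 CPM between 0.85 and 0.97 over the 12 libraries for their 6 pairs. These values describe libraries that fall into 4 groups, and within the groups, as deviations from the group means, r lay between 0.47 and 0.86. Acta2 and Myh11 had an r of 0.40 over all libraries and of 0.88 as deviations, so they varied together inside the groups while their group means differed in order. Both deviated in the same direction in each of the 12 libraries. DPP4+ library 2, which stands apart, had the largest deviations of Acta2 (0.92), Myh11 (1.14), Cnn1 (0.55) and Lmod1 (1.01). It thus weighs heavily in these r values, which were not taken without it. Des had r between -0.54 and 0.33 with the other 9 members.

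By the same measure over 12 libraries, the genes most like each member among those with a mean of at least 5 CPM were named. Acta2 was most like Gas2l3 (r = 0.98), Abcb10, Rasl12, Cnn1 and Tpm2 (r = 0.97). Myl9 was most like Colec11 (r = 0.99), Actn1 (r = 0.99), Fhl2 (r = 0.98), Stc1 and Foxs1. Cnn1 was most like BC055324, Hcar1, Foxm1, Anln and Cdca5 (r = 0.97 to 0.98). Actg2 was most like Scarb1 (r = 0.96), Maob and Cav1. Smtn was most like the matrix genes Thbs2 (r = 0.98) and Col16a1 (r = 0.97), and Des like Cish and Hcfc1r1 (r = 0.95 each). Lmod1 was most like Tedc1 and Gas2l3 (r = 0.94 each), Myocd like Dhx33 (r = 0.90) and Tagln like Tmem38b (r = 0.88). For Myh11 the highest were Ints13 and Mylk (r = 0.85 each).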

How the data were processed

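RNA was sequenced from 12 libraries, 3 per sorted population, made with an ultra-low-input kit that selects poly(A) RNA, per the labels' protocols. The submitters' processing notes name STAR 2.5.2a, mm10 and DESeq2 1.26.0; the counting tool, annotation and use of strand are stated in no source used here. In the deposited files, the raw table holds 1 count per gene and library. The authors' normalised table holds a signal (raw counts over a library-wide size factor), and their other table holds regularised log2 values. Only the counts were used for results, and columns were matched to samples by name.

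Counts were filtered with edgeR's filterByExpr (minimum count 10), scaled by TMM and fitted in 1 quasi-likelihood model of all 12 libraries with a mean per group (edgeR 4.0.16, limma 3.58.1, R 4.3.3). Tests were two-sided, with Benjamini-Hochberg adjustment over 18855 genes and calls at an adjusted p under 0.05; standard errors are the log2 fold change divided by the square root of F. The script was tested on simulated data. Replicates are pools of mice, so p-values measure the spread between pools. The labels pair same-numbered libraries, whose deviations from the group means correlated between -0.21 and 0.15, with 5 of 18 pairs over 0.1. Libraries with different numbers reached 0.27. Deviations from a mean of 3 libraries are tied to each other, and more pairs have different numbers than the same number. These values therefore cannot decide how alike the paired libraries are, and a fit with the replicate number as a block was run as an alternative. Exon lengths, coordinates and overlaps come from GENCODE release 21 for mouse (M21, GRCm38). Promoters come from RefSeq, of which 6 members matched.

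All 10 members are named. From other lists, the text names up to 4 called genes with the largest change per comparison, except for contractile partners, SRF regulators, non-muscle counterparts and cardiac genes, of which any may be named; Dpp4 and Icam1 check the labels. The members and lists were chosen with earlier results of these data known. DESeq2 1.42.0, other scalings and filters, a replicate block, the 2 groups alone and leaving out each library were the alternatives. Some genes are not reported here.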

Additional observations from a re-analysis of the deposited data

Results flagged for a closer look

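The step from progenitors to preadipocytes differed between the depots for Myl9. The perivascular step was 0.22 on the log2 scale (preadipocytes over progenitors) and the inguinal step was 1.72, and the interaction of depot and stage was -1.50 (SE 0.28, edgeR adjusted p = 0.00418). The value lay between -1.76 and -1.38 when each library was left out in turn. Myl9 was the 1 member of 10 that passed this test, beside 15.0% of all genes tested.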

How the results depend on the processing

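Of 16 member calls, 11 held under every alternative run: Acta2, Cnn1 and Myl9 in both comparisons against DPP4+ progenitors, Actg2 in both steps, Des in both depot comparisons and the Myl9 interaction. The replicate block changed the calls of Smtn between preadipocytes (log2 -0.84, adjusted p = 0.0581) and of Tagln in the perivascular step (log2 1.90, adjusted p = 0.0635) and no other call of the members. Library totals as the scale moved the median log2 difference of all genes to 0.48 between progenitors, 0.27 between preadipocytes, 0.12 and 0.40 in the perivascular and inguinal steps and -0.21 in the interaction, and the share of calls that were upward to 83.7%, 66.5%, 66.3%, 82.6% and 23.3%, against 52.5%, 52.2%, 51.1%, 52.0% and 42.4%. Under that scale 7548 genes were called between progenitors (4687 with TMM) and 5276 in the inguinal step (3384), member calls between preadipocytes were 2 upward and 1 downward, and the directions of Myh11 (0.10) and Tagln (0.30) between progenitors and of Des in the perivascular step (0.0403) were reversed, none of them called. With the 2 groups alone, 2825 genes were called in the perivascular step (6198 in the fit of all libraries) and 5757 in the inguinal step. Without the 3 libraries that stand apart, 9893 genes were called in the perivascular step and 7783 in the interaction, and the members called were 8 between progenitors (beside 30.1% of all genes), 6 between preadipocytes (56.3%), 5 in the perivascular step (51.0%) and 7 in the interaction (40.1%). In that fit the direction was reversed between progenitors for Myh11 (0.87, adjusted p = 0.0134) and Tagln (0.51), between preadipocytes for Tagln (-0.26) and Myl9 (-0.0452), in the perivascular step for Myh11 (-0.31), Myl9 (-0.0113) and Des (0.40), and in the interaction for Tagln (-0.78) and Actg2 (-0.0649). The causes were not tested.

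Leaving out 1 library at a time, genes called ran from 3916 to 8000 in the perivascular step and from 1666 to 5231 in the interaction, and members called from 1 to 4 between preadipocytes, in the perivascular step and in the interaction. The direction of results without a call also turned. Between progenitors Myh11 ran from -0.67 to 0.51 and Tagln from -0.76 to 0.34. Between preadipocytes Tagln ran from -0.27 to 0.43 and Myl9 from -0.0508 to 0.33. In the perivascular step Myh11 ran from -0.30 to 0.42, Myl9 from -0.0489 to 0.33 and Des from -0.44 to 0.18. In the interaction Tagln ran from -0.19 to 0.88 and Actg2 from -0.0473 to 0.71. Tagln (1 to 35 counts), Lmod1 and Myocd are limited by depth.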

Other observations

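Adipocyte genes were counted beside the members as a list of 12. Of these, 9 were higher in perivascular than in DPP4+ progenitors and none was lower, and 11 were higher and 1 lower in perivascular than in ICAM1+ preadipocytes. In the perivascular step 11 rose and none fell, and in the inguinal step 5 rose and 1 fell. The perivascular preadipocyte libraries differed in this list, with sums of 2948, 6574 and 7261 CPM. The sum of library 1 lay below the 3529 to 3941 CPM of the ICAM1+ libraries. Among all genes tested, 13.0% were higher and 11.8% lower between progenitors, and 23.5% and 21.4% between preadipocytes. In the perivascular step 16.8% of all genes rose and 16.1% fell, and in the inguinal step 9.34% and 8.61%. Of 12 stromal genes, 12 fell in the perivascular step, while in the inguinal step 5 fell and 1 rose. The list holds Dpp4, which is among the 5, and Icam1, the 1 that rose, and the inguinal groups are named for these markers. Of 10 mesothelial genes, 7 were higher and none was lower in perivascular than in DPP4+ progenitors. Of 12 haematopoietic genes, 8 were lower and none was higher in perivascular than in DPP4+ progenitors, and of 7 tested mast cell genes 6 were lower and none was higher. Of 9 tested skeletal muscle genes, 1 was higher and 1 lower there. Summed endothelial markers were 94.9 to 154 CPM in perivascular preadipocytes, 244 to 386 in perivascular progenitors, 215 to 259 in ICAM1+ preadipocytes and 780 to 1008 in DPP4+ progenitors, where Tek held most of the sum.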
